A study of Mus musculus with 6 samples.

Results

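The mitosis and spindle genes described here are 40 genes that act between the end of DNA synthesis and the separation of daughter cells, and they were followed in embryonic mouse rhombomere 1 of Gata2 conditional mutants and controls. They were chosen by name: every probe of the array whose annotated symbol was one of the 40 was taken, whatever its signal. Of the 40 genes, 38 had at least 1 named probe (76 probes of 45276 on the array), and 29 had a probe above background on at least 3 of 6 arrays and were tested, among 10524 tested genes in all. The other 11 were Ccnb1 and Mki67, for which no probe was named here, and 9 genes whose probes were not detected. In RNA from whole tissue, a change in the number of cycling cells and a change in RNA per cycling cell cannot be told apart.

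Tissue was dissected at E12.5 from embryos of the ICR (CD-1) strain. Control pools held En1-cre, Gata2 flox/+ embryos and mutant pools held En1-cre, Gata2 flox/flox embryos, so that both groups carried the Cre recombinase and at least 1 floxed Gata2 allele, although the sample titles call the controls wildtype. En1-cre acts in the En1-expressing midbrain and rhombomere 1. Each group had 3 pools of 6 pieces of rhombomere 1, called biological replicates in the series' design text. RNA of each pool went onto its own Illumina Mouse WG-6 array, where labelled RNA binds probe-coated beads and the bead brightness is read. The table names the control arrays 5R, 6R and 7R and the mutant arrays 1R, 2R and 3R.

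Entry into mitosis is driven by the kinase Cdk1 bound to A and B type cyclins. Polo and Aurora kinases then build the spindle, kinetochores tie chromosomes to its microtubules, and the spindle checkpoint holds back the anaphase-promoting complex (APC/C), the ubiquitin ligase that starts chromosome separation, until all are attached. In the embryonic hindbrain these steps take place in progenitors at the ventricular surface, and young neurons that leave the cycle switch the genes off. Gata2 encodes a GATA family transcription factor made in newly formed neuronal precursors, and the comparison of the 2 genotypes asks how gene expression in this tissue differs between them.

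Between 19388 and 20407 probes were above background on an array, and the Pearson correlation of 2 arrays over the probes, which are not independent of each other, was 0.988 to 0.993 inside a group and 0.988 to 0.991 for arrays of different groups. The Gata2 probe was higher on each mutant array than on every control array, with a mean of 10.53 ± 0.16 in controls and 10.89 ± 0.17 in mutants (SD, n = 3; difference 0.36, limma adjusted p = 0.412). The sources used here do not place it inside or outside the deleted part, so it does not check the labels. The rhombomere 1 markers En1 and En2 were bright, at control means of 11.59 and 12.45, and Gbx2 had a control mean of 7.09 ± 0.77 (SD, n = 3). Pax2 of the same list was detected on 0 arrays. En1 is also expressed in midbrain, so its level does not tell the 2 regions apart. Some region markers differed between the groups by as much as the mitosis genes or more, and their part in the results was not tested: Gbx2 by 0.67 (adjusted p = 0.628), Fgf8 by 0.41 (adjusted p = 0.51) and Hoxa2 by 0.34 (adjusted p = 0.793). In the other direction En1 differed by -0.25 (limma adjusted p = 0.609), Hoxb2 by -0.20 (adjusted p = 0.75) and En2 by -0.18 (adjusted p = 0.686). Otx2, a marker of midbrain, was also detected on all arrays with means of 8.33 and 8.34, while the caudal hindbrain markers Hoxa2 and Hoxb2 lay near background at 5.06 and 5.09 in controls and Hoxa3, Hoxb3 and Egr2 were detected on 0 arrays. Levels of different probes are not compared. Values are normalized log2 intensities, on which undetected spots had a median of 4.44. All differences are mutant minus control, with standard errors and 95% intervals from limma, and p-values adjusted over all 10524 genes by the Benjamini-Hochberg method. Precision is limited by having 3 arrays a group.

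All 29 tested mitosis and spindle genes had a higher mean in the mutants, but each by a small amount, and none passed the test. The differences ran from 0.02 for Kif11 to 0.39 for Nuf2, with a median of 0.18, or 1.13-fold. Over all tested genes the median difference was 0.01 and 53.3% of differences were above 0. At an adjusted p under 0.05 there were 0 of 29 calls by limma, where 0.171% of all tested genes were called in either direction and 0.038% were called higher. Adjusted p-values of the 29 genes lay between 0.418 and 0.979. Before adjustment, 4 genes (13.8%) had p under 0.05, beside 4.34% of all tested genes that were higher at that p. The lowest mutant value exceeded the highest control value in 6 genes (20.7%), which held for 7.69% of all tested genes. These genes share the cells they come from and their values move together from array to array, so their number does not count as independent evidence. The count of positive differences was 25 without control array 6R, where the median difference was 0.09, and 24 without mutant array 1R. Without both it was 19 of 29, with a median of 0.07.

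**Figure D1:**
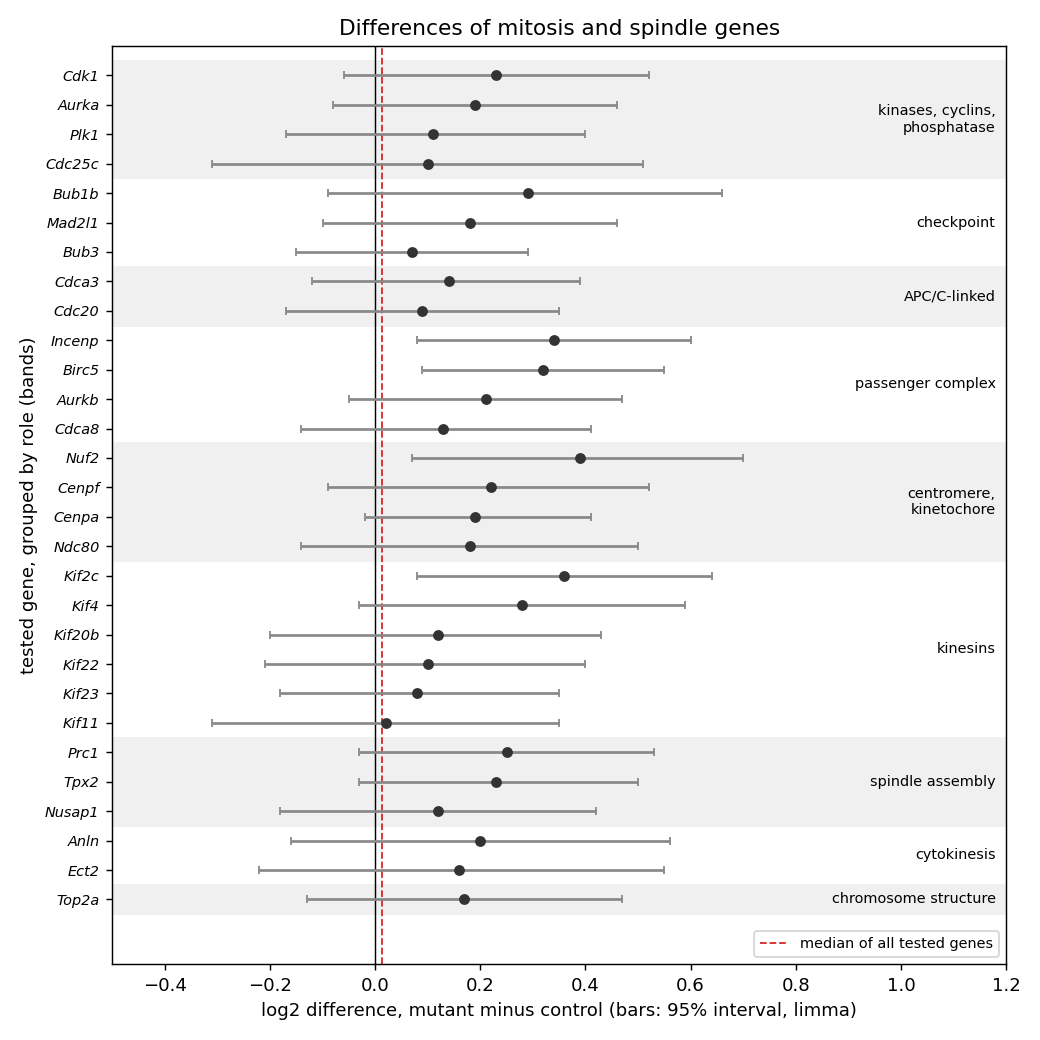
Log2 difference, mutant minus control, of the 29 tested mitosis and spindle genes grouped by role, with 95% intervals from limma (n = 3 pools per group). All points lie right of 0, between 0.02 and 0.39, and only the intervals of Birc5, Incenp, Kif2c and Nuf2 leave out 0, before adjustment for the number of genes tested.

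The upper ends of the 95% intervals reached 0.70 at most, for Nuf2, so a doubling was outside the unadjusted interval of each of the 29 genes. The smallest difference called anywhere on the array was 0.69 in size. The members' median of 0.18 is below that. The median standard error was 0.13 for the 29 genes and 0.13 over all tested genes.

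The chromosomal passenger complex had the highest median of the 9 roles with 0.26, and all 4 of its genes were measured. This complex, made of the kinase Aurkb and its partners Incenp, Birc5 and Cdca8, corrects wrong attachments at centromeres and later moves to the spindle midzone. Birc5, also called survivin, read 10.02, 9.78 and 10.08 on control arrays 5R, 6R and 7R and 10.32, 10.31 and 10.20 on mutant arrays 1R, 2R and 3R. The groups did not overlap, and the difference was 0.32 ± 0.11 (95% interval 0.09 to 0.55, unadjusted p = 0.011, adjusted p = 0.418). All 3 Birc5 probes were detected, and they gave 0.32, 0.33 and 0.27. Incenp, the scaffold of the complex, read 7.98, 7.88 and 8.14 in controls and 8.27, 8.27 and 8.48 in mutants, again without overlap, a difference of 0.34 ± 0.12 (adjusted p = 0.445). Aurkb itself read 8.17, 7.87 and 8.17 in controls and 8.34, 8.22 and 8.27 in mutants. Its groups did not overlap, and the difference of 0.21 ± 0.12 did not pass (adjusted p = 0.664). Cdca8, or borealin, differed by 0.13 (0.16 on its second probe) with overlapping groups, and without mutant array 1R its difference was -0.01.

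Of the centromere and kinetochore genes, 4 of 5 were measured, with a median of 0.21. Nuf2 and Ndc80 are partners in the complex that grips microtubules. Nuf2 differed by 0.39 ± 0.15 (adjusted p = 0.479), the largest value of the set in the main fit, but not under every alternative. Its difference was 0.16 without background correction, 0.22 with an offset of 50 and 0.17 on the authors' normalized table. Kif2c had 0.32, 0.34 and 0.34 under the same alternatives. Nuf2 read 5.43, 5.14 and 5.31 in controls and 5.66, 5.62 and 5.77 in mutants. The groups were separate, but the signal lay close to background, and a second Nuf2 probe was detected on 0 arrays. Ndc80 was 0.18 higher, with groups that overlapped. Cenpa, the histone H3 variant that marks centromeres, was the brightest of these probes at 12.36, 12.19 and 12.47 in controls and 12.63, 12.53 and 12.44 in mutants. Control array 7R lay above mutant array 3R, and the difference was 0.19 ± 0.10 (adjusted p = 0.61), with 0.20 on the second probe. Cenpf, a large protein of the outer kinetochore, differed by 0.22 on one probe and by -0.20 on a dimmer one, so its direction is not settled. Cenpe, a kinetochore motor, was not detected.

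Of 7 kinesins, motor proteins that slide or shorten microtubules, 6 were measured, and their median was 0.11. Kif2c, which takes apart microtubules at centromeres to free wrong attachments, read 9.15, 8.86 and 9.26 in controls and 9.62, 9.47 and 9.26 in mutants. The highest control and the lowest mutant value were equal to 2 decimals, and the difference was 0.36 ± 0.13 (adjusted p = 0.461). Kif4, a chromosome-bound kinesin also needed in the spindle midzone, read 8.42, 8.12 and 8.57 in controls and 8.67, 8.84 and 8.44 in mutants. Its groups overlapped, with a difference of 0.28 ± 0.14 (adjusted p = 0.605) and 0.14 and 0.11 on its other probes. The remaining kinesins had smaller values. Kif20b, which works in cytokinesis, differed by 0.12, and Kif22, which pushes chromosome arms, by 0.10. Kif11, the motor that drives the spindle poles apart, differed by 0.02 ± 0.15. Kif23, a motor of the central spindle, differed by 0.08 on its brightest probe, but its 3 other detected probes gave 0.12, -0.34 and -0.01. Kif20a was not detected.

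Among the mitotic kinases, cyclins and the Cdk1-activating phosphatase Cdc25c, 4 of 7 genes were measured, with a median of 0.15. Cdk1, the kinase that brings cells into mitosis, read 9.76, 9.66 and 10.12 in controls and 9.91, 10.26 and 10.06 in mutants. Control array 7R exceeded 2 of the 3 mutant arrays, and the difference of 0.23 ± 0.13 did not pass (adjusted p = 0.664). Aurka, the Aurora kinase of spindle poles, differed by 0.19. Plk1, the polo kinase, differed by 0.11, and without control array 6R by -0.02. Cdc25c differed by 0.10 ± 0.19, the least precise value of the set, with mutant arrays from 7.03 to 7.81. A second detected Cdc25c probe of nearly the same mean level (7.41 beside 7.42) gave 0.27. The cyclin genes Ccna2 and Ccnb2 each had 1 named probe that was detected on 0 arrays.

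The spindle checkpoint was measured through 3 of 5 genes. Bub1b, which helps to block the APC/C, differed by 0.29 ± 0.17 (adjusted p = 0.675) on one probe and by 0.21 on another. On the first probe mutant array 1R read 10.03 beside 9.31 and 9.61 on the other mutant arrays, and without 1R the difference was 0.10. On the dimmer probe mutant arrays 1R, 2R and 3R read 8.15, 8.11 and 7.46. Mad2l1, the checkpoint protein that binds the APC/C activator Cdc20, differed by 0.18 and Bub3, which recruits the Bub kinases to kinetochores, by 0.07. On the APC/C side, Cdc20 differed by 0.09 and its other 3 probes by 0.25, 0.14 and 0.20. Cdca3, linked to the ubiquitin-dependent control of mitotic entry, differed by 0.14. Bub1, Ttk and the APC/C ubiquitin-conjugating enzyme Ube2c were not detected.

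Of 4 spindle assembly and bundling genes, 3 were measured, with a median of 0.23. Prc1, which crosslinks the microtubules of the spindle midzone, read 11.71, 11.71 and 12.16 in controls and 12.27, 12.11 and 11.96 in mutants. Control array 7R lay within the mutant range, and the difference was 0.25 ± 0.13 (adjusted p = 0.61). Tpx2, which activates Aurka on the spindle, had tighter groups: 6.86, 6.75 and 6.80 in controls and 7.01, 7.12 and 6.98 in mutants. They did not overlap, with a difference of 0.23 ± 0.12 (adjusted p = 0.624). Nusap1, a microtubule-binding protein, differed by 0.12 on its brightest probe and by -0.01 on a dimmer one. The cytokinesis genes Anln and Ect2 differed by 0.20 and 0.16 with overlapping groups. Ect2 rested on a dim probe, at 5.48 to 6.15, and its other probe was detected on 0 arrays. The Ect2 difference was 0.07 without background correction and 0.08 on the authors' normalized table. Hmmr and Racgap1 were not detected.

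Top2a, the topoisomerase that untangles chromosomes and a common marker of dividing cells, was the measured gene of chromosome structure. It read 10.17, 9.62 and 10.15 in controls and 10.22, 10.19 and 10.04 in mutants. Control array 6R was the lowest of the 6, while control arrays 5R and 7R lay inside the mutant range. The difference was 0.17 ± 0.14 (adjusted p = 0.776), and it was -0.01 without control array 6R. The other 2 Top2a probes gave 0.29 and 0.28.

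Across probes, 45 of the 49 detected ones had positive differences, beside 52.6% of all detected named probes. Of the 13 genes with more than 1 detected probe, 10 had probes of 1 sign, and the exceptions were Cenpf, Kif23 and Nusap1. Each of the 29 tested genes was detected on all 6 arrays. The probes of the 9 undetected genes were above background on at most 1 array, with levels of 4.25 to 5.03. For the rule on detection, Kif23 supplied the probe just inside the limit (3 arrays), and Ttk and Bub3 the probes next below it (1 array).

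The plot of values by array shows that the arrays did not fall cleanly into 2 groups. The mean level of the 29 genes was 9.00 on control array 5R, 8.82 on 6R and 9.14 on 7R, and 9.28 on mutant array 1R, 9.21 on 2R and 9.04 on 3R. Control array 7R was above mutant array 3R, so the groups overlapped. Control array 6R was the lowest of all 6 arrays in 22 of the 29 genes, beside 14.7% of all tested genes. Mutant array 1R was the highest in 15, beside 19.7% of all tested genes. Within the mutants, array 3R was lowest in 22 genes, beside 33.6% of all tested genes. The genes varied more between control pools (median SD 0.21) than tested genes in general (0.13). Between mutant pools the median SD was 0.16, beside 0.15.

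**Figure D2:**
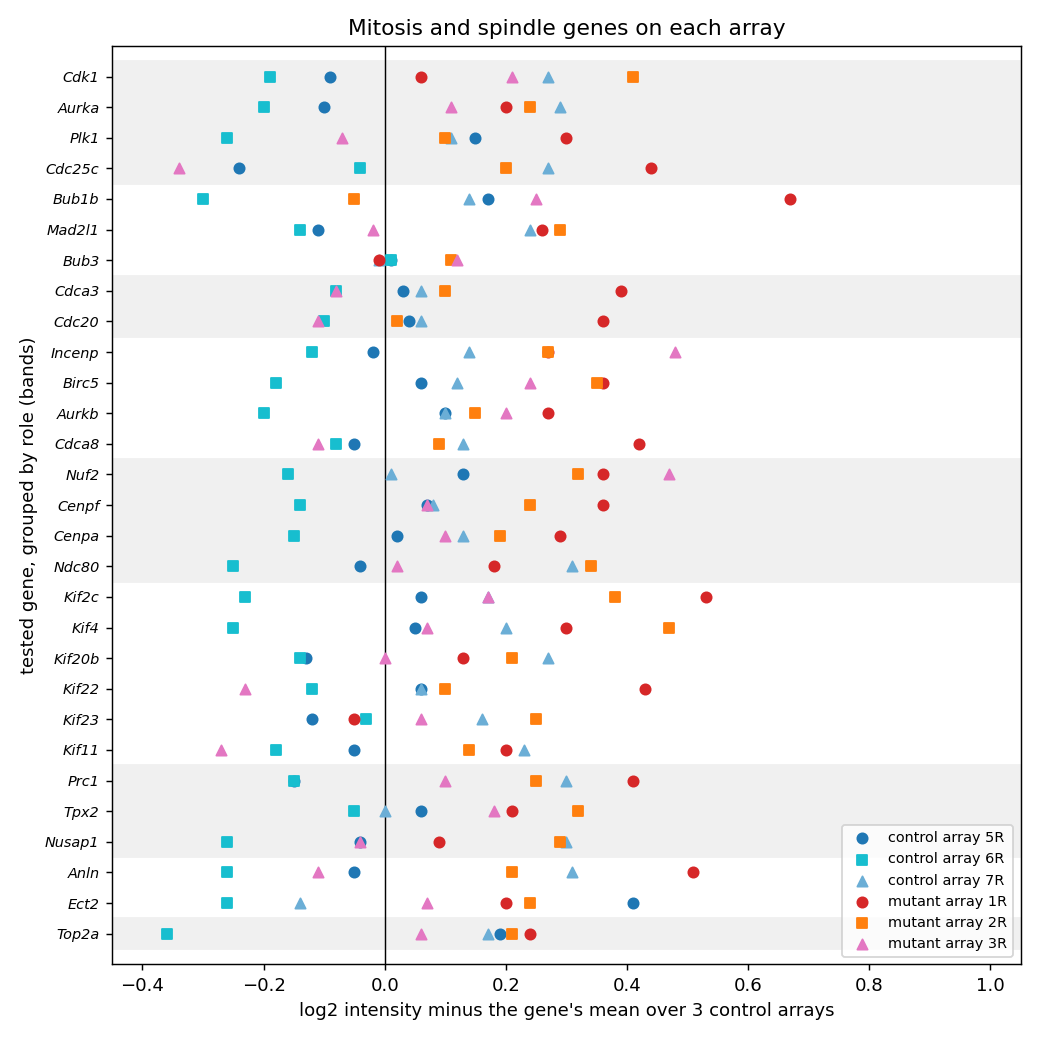
Log2 intensity of each tested mitosis and spindle gene on each of the 6 arrays, minus that gene's mean over the 3 control arrays (blue shades, controls; red, orange and pink, mutants). Control array 6R lies to the left in most rows and mutant array 1R to the right in many, while control array 7R and mutant array 3R intermingle.

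The other genes of the pathway gave similar values. A wider list of 92 mitosis genes outside the 40 had 71 tested members, of which 62 had positive differences, with a median of 0.16 and 0 calls. The counts were 55 of 71 without control array 6R, with a median of 0.10, and 47 of 71 without that array and mutant array 1R, with a median of 0.08. Without mutant array 3R the median was 0.24. Within it, the differences with the smallest p were 0.44 for Kif15, a spindle kinesin, 0.42 for Espl1, the separase that cuts cohesin, and 0.40 for Ska3, of the kinetochore (adjusted p = 0.375, 0.412 and 0.458). In the other direction Pkmyt1, a kinase that inhibits Cdk1, differed by -0.35 (adjusted p = 0.505), and the APC/C subunits Cdc23 and Cdc16 differed by -0.10 and -0.08. Foxm1 and Mybl2, transcription factors of late cell cycle genes, differed by 0.27 (adjusted p = 0.55) and 0.15. Of 23 measured S phase genes 19 were positive, with a median of 0.16 and Fen1 at 0.42 (adjusted p = 0.238) the smallest p. Without control array 6R and mutant array 1R, 17 of 23 were positive with a median of 0.05. The S phase mean was lowest on control array 6R (8.50) and highest on mutant array 1R (8.84), and the wider mitosis list had 7.63 on 6R and 7.93 on 1R and 2R.

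**Figure D3:**
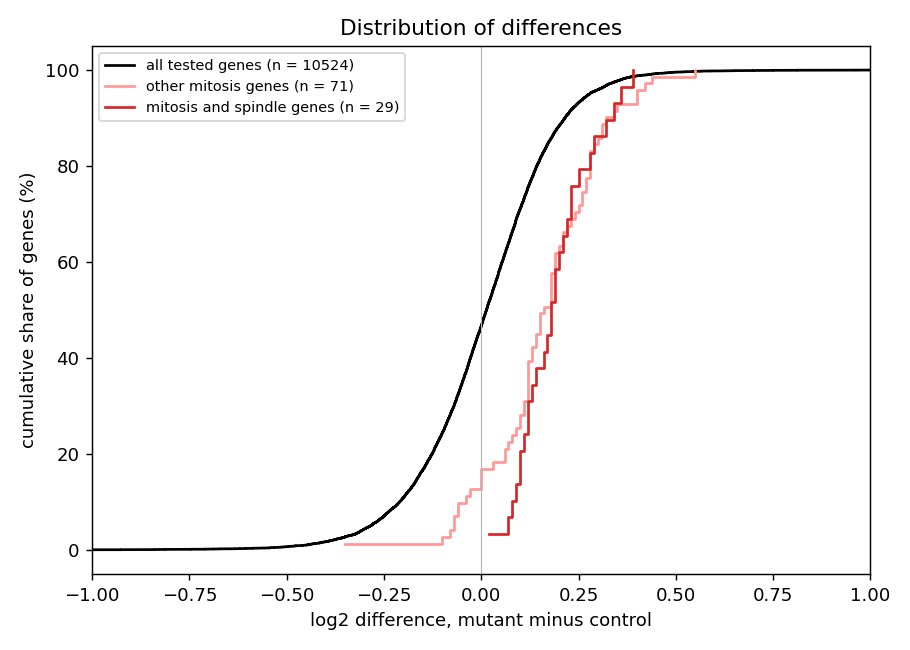
Cumulative share of genes (percent) by log2 difference, mutant minus control, for the 29 mitosis and spindle genes, 71 other mitosis genes and 10524 tested genes. Both mitosis curves lie to the right of the curve of all genes, with medians of 0.18 and 0.16 against 0.01 (0.07 and 0.08 for the mitosis sets without control array 6R and mutant array 1R); genes of a curve share arrays and are not independent.

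Markers of other cell states and types were followed as well, and their part in the result was not tested. Over all tested genes 53.3% of differences were above 0. Markers of postmitotic neurons had a mean level of 10.45 to 10.61 on control arrays and 10.38 to 10.50 on mutant arrays, with 9 of 11 negative, a median of -0.08 and 0 calls. They were lowest on mutant arrays 1R and 2R, where the mitosis genes were highest, and at 10.61 on control array 6R, where the mitosis genes were lowest. The smallest p-values were those of Syt1, a calcium sensor of transmitter release, at -0.62 (adjusted p = 0.0614) and Dcx at -0.16. The 2 positive ones were Elavl3 at 0.16 and Ina at 0.01. Snap25 and Nefl of this list were not detected. Serotonergic neuron genes were the group that did change, with 6 of 7 called lower, beside 0.171% of all tested genes called in either direction. Neural progenitor markers were lowest on control array 6R (9.09) and highest on mutant array 1R (9.42), the same arrays as for the mitosis genes. They had group ranges of 9.09 to 9.32 and 9.21 to 9.42, with 5 of 9 positive (55.6%) and 0 calls. Their median was 0.12, and it was -0.03 without control array 6R and mutant array 1R. Hes5 had the smallest p at 0.37 (limma adjusted p = 0.331), while Notch1 differed by -0.13 and Sox2 by -0.09. Pax6 was not detected.

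Red blood cell precursors of the embryo also divide. Of the erythroid markers, 7 of 7 measured were positive with a median of 0.25 and 0 calls. Their mean level was 10.57 to 10.73 on control arrays and 10.69 to 10.99 on mutant arrays. They were lowest of all on control array 6R (10.57), as the mitosis genes were. They were highest on mutant array 3R (10.99), where the mitosis genes were lowest of the mutant arrays, and lowest of those on 1R (10.69). Without mutant array 1R, 2 of them were called, but calls over all tested genes then rose from 18 to 52. Without control array 6R, 5 of 7 erythroid markers were positive. Endothelial and mural markers had ranges of 6.38 to 6.58 and 6.28 to 6.69 with 4 of 8 positive. Kdr was detected on 0 arrays and Pdgfrb on 2. Microglial markers had ranges of 5.76 to 5.96 and 5.69 to 5.74 with 2 of 6 positive, and Ptprc was not detected. Of 9 mesenchyme markers 3 were measured, with ranges of 6.01 to 6.15 and 5.94 to 6.17, and Col1a1, Col1a2, Col3a1 and Lum were detected on 0 arrays.

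**Figure D4:**
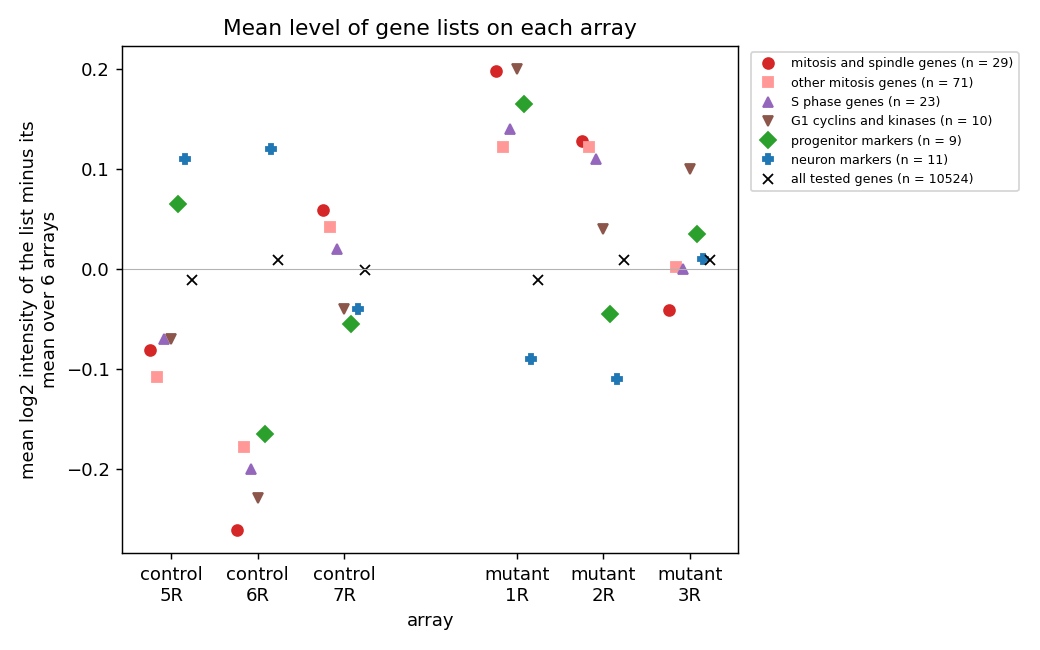
Mean log2 intensity of 7 sets of genes on each array, minus the set's mean over 6 arrays, with 1 point per set and array. The 4 cell cycle sets and the progenitor markers share their lowest array, control 6R, and neuron markers are low on mutant arrays 1R and 2R, where the mitosis genes are high.

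The genes also share promoter features that did not enter their choice. Many genes of the late cell cycle are switched through a pair of short elements near the start of transcription: the CCAAT box, bound by NF-Y, and the cell cycle genes homology region, or CHR, bound by MuvB complexes that repress in resting cells and activate in dividing ones. RefSeq promoter windows of 250 bases before to 50 after the start (GRCm38.p6) were found for 34 of the 40 genes. They were searched on both strands for the letters CCAAT, which read ATTGG on the opposite strand. The CHR was searched as TTTGAA, which reads TTCAAA on the opposite strand, or as TTCGAA, which is its own reverse complement. Neighbouring CCAAT and CHR matches can share an end base. A CHR was present in 28 of the 34, 82.4%, beside 21.7% of 27025 genes in the table and 16.1% of the tested genes with a window. A CCAAT box was present in 26, 76.5%, beside 41.1% of genes in the table and 43.5% of the tested genes. Both were present in 24, 70.6%, beside 8.61% and 6.78%. These counts include members that were not tested. Of the 25 tested members with a window, 84.0% held a CHR, 68.0% a CCAAT box and 68.0% both. A match is a description, not a site or a cause. The stretches of 120 bases before the start are shown for genes described above with both, one or neither motif, and for Ccnb1, whose product is a partner of Cdk1 and which had no named probe; capitals mark the motifs:
Cdk1, chr10:69352913-69353032, minus strand: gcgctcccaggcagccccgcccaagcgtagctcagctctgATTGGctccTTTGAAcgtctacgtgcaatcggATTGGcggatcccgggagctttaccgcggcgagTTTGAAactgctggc
Prc1, chr7:80294356-80294475, plus strand: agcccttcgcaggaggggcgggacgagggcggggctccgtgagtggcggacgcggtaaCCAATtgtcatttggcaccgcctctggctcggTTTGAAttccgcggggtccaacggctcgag
Cenpa, chr5:30666766-30666885, plus strand: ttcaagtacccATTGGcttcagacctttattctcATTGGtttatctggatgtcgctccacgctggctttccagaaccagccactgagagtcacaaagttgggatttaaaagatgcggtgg
Kif2c, chr4:117178773-117178892, minus strand: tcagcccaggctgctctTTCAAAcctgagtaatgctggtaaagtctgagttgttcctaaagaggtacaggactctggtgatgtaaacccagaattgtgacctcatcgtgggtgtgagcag
Birc5, chr11:117849117-117849236, plus strand: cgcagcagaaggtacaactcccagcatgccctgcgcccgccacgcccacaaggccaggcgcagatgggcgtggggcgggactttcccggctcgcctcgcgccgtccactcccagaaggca
Ccnb1, chr13:100786487-100786606, minus strand: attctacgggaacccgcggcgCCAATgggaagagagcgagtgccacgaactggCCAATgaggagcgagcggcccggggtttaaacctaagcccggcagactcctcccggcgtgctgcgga

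In these stretches Cdk1 held 2 CCAAT boxes and 2 CHR matches, Prc1 held 1 of each, and Cenpa and Ccnb1 held 2 CCAAT boxes and no CHR. The stretches leave out matches of the longer windows that lie further upstream or after the start. Cenpa had such a CHR, at 16 after the start, and was counted above as having both motifs. Kif2c held 1 CHR, at -103 from the start, and no CCAAT box, and Birc5 held neither. The differences were 0.23 for Cdk1, 0.25 for Prc1, 0.19 for Cenpa, 0.36 for Kif2c and 0.32 for Birc5, none of which passed the test; whether differences follow the motifs was not tested. The stretches of Birc5, Kif2c, Prc1 and Cenpa were picked after the motifs were seen, from the 10 genes with the smallest p, and Cdk1 and Ccnb1 were shown whatever their values.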

How the data were processed

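The deposited main table gives the linear intensity of each probe on 6 arrays, non-normalized per the file headers, beside a detection p-value. The authors' other table has normalized linear intensity with a median of 86.4; the sources used here do not say how it was made, and it served as an alternative only. The submitters' processing notes name GenomeStudio 1.0. Columns of the first table give the genotype and an array number found in no title, so a column stands for 1 pool of its group without a replicate number.

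Intensities were background-corrected from the detection p-values, quantile-normalized and put on the log2 scale (neqc, offset 16, limma 3.58.1, R 4.3.3); the offset narrows differences of dim probes. A probe was kept, as 19936 of 45276 were, if at least 3 arrays gave it a detection p-value under 0.05. Symbols came from GEO's platform annotation (34881 probes with 1 symbol, 18 with several, 10377 unnamed here). Of the probes with 1 symbol, 34803 were found in RefSeq's genes for GRCm38.p6. The fit (lmFit, eBayes with an intensity trend) ran on all kept probes, the brightest probe stood for a gene, and p-values were adjusted over 10524 genes with a threshold of 0.05. The same code was tested on simulated data.

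Members and lists were chosen with earlier results of these data known. Array values are given for the 10 members with the smallest p, Top2a, Cdk1 and Aurkb; other genes are named by role, or by the smallest p of their list. No gene list was tested as a set, because the genes were chosen with results in view. Alternatives were the authors' normalized table, median scaling, no background correction, an offset of 50, the mean of probes, a detection p-value under 0.01 throughout a group, no filter on detection, no trend, array weights, leaving out each array, a replicate block and a threshold of 0.1. Leaving out 2 arrays together was chosen after seeing the data.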

Additional observations from a re-analysis of the deposited data

How the results depend on the processing

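No mitosis or spindle gene was called under any of the alternatives run, and the lowest adjusted p of any of the 29 was 0.263 (493 member differences under 17 alternatives, of which 23 changed sign in 12 genes). The count of positive differences lay between 24 and 29 leaving out 1 array, and that of negative ones between 0 and 5. Negative counts were 4 without the detection filter (38 genes, 34 positive, median 0.15) and 1 with the mean of probes, where Kif23 was -0.03. The median difference was 0.09 without control array 6R, 0.26 without control array 7R, 0.14 without mutant array 1R, 0.25 when mutant array 3R was left out, and 0.26 with median scaling, which moved the median of all tested genes to 0.084 and the share of positive differences to 69.1%. Members at an unadjusted p under 0.05 then numbered 13; they were 12 without control array 7R and 0 without control array 6R.

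Without control array 6R and mutant array 1R, chosen after seeing the data, 19 genes were positive and 10 negative, and 43 of all genes were called. The negative ones were Anln -0.08, Bub1b -0.05, Cdc20 -0.10, Cdca3 -0.03, Cdca8 -0.05, Kif11 -0.16, Kif22 -0.13, Nusap1 -5e-04, Plk1 -0.11 and Top2a -0.05. Leaving out 1 array, differences that changed sign ranged from -0.05 to 0.19 for Cdc20, -0.07 to 0.41 for Cdc25c, -0.01 to 0.25 for Cdca8, -0.07 to 0.17 for Kif11, -0.07 to 0.26 for Kif22, -0.01 to 0.26 for Nusap1, -0.02 to 0.20 for Plk1 and -0.01 to 0.27 for Top2a. The count of changed genes among all genes was 18, and 12 to 52 leaving out 1 array, the highest without mutant array 1R.

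The replicate block could be fitted on the authors' normalized table only, which carries replicate numbers; it gave 14 changed genes (18 without the block), 0 members called, 29 positive and a median of 0.17. The deviations of same-numbered samples had correlations of -0.04, -0.09 and -0.30. With 3 samples a group, these values do not settle what the numbers stand for. Dim probes such as Nuf2 lie close to background, where signal limits the size of a difference.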

Other observations

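The G1 part of the cycle gave positive differences too. All 10 measured G1 cyclins, kinases and E2F factors were positive with a median of 0.22 and 0 calls, beside 53.3% positive among all tested genes. Without control array 6R, 7 of 10 were positive. Ccnd1, a cyclin that starts the cycle in response to growth signals, read 11.98, 11.88 and 11.98 in controls and 12.35, 12.23 and 12.29 in mutants, a difference of 0.34 ± 0.09 (limma adjusted p = 0.292). Ccnd3 differed by 0.38 ± 0.10 (adjusted p = 0.326) and E2f3 by 0.37 (adjusted p = 0.494). These 3 genes had the smallest p of the list, and their groups did not overlap. All mutant values were above all control values in 5 of the 10 genes, beside 7.69% of all tested genes.

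Genes that slow or end the cycle gave mostly small positive values. Of 12 measured inhibitors and exit genes 11 were positive, with a median of 0.07 and 0 calls, and 8 of 12 were positive without mutant array 1R. The smallest p-values were those of Rbl1, a pocket protein made in cycling cells, at 0.37 (adjusted p = 0.491), Gadd45a, a stress-induced growth arrest gene, at 0.26 (adjusted p = 0.542) and Ccng1 at 0.23 (adjusted p = 0.606). Cdkn1c, the inhibitor that marks progenitors leaving the cycle, was bright and differed by 0.08, from 13.47 ± 0.14 to 13.55 ± 0.21 (SD, n = 3; adjusted p = 0.88). Cdkn2d was the 1 negative member at -0.01.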
